A study of Mus musculus with 12 samples.

Results

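CD73- newly generated regulatory T cells (Treg) of the mouse thymus were compared with newly generated conventional CD4 T cells (Tconv) by RNA sequencing. The members are 6 libraries, 3 of each group, of the 12 libraries in the series, chosen by their labelled cell type. C57BL/6 mice were injected into the peritoneum with tamoxifen at 10 μg per g of body weight, and thymocytes were sorted 7 days later. CD73- new Treg were sorted as CD4+ tdTomato+ GFP+ CD73- cells, and new Tconv as CD4+ tdTomato+ GFP- CD73- cells. Both groups therefore carry the tdTomato label and lie outside the CD73 gate, and they differ by GFP, which reports Foxp3. The other groups are CD73+ new Treg (CD4+ tdTomato+ GFP+ CD73+) and tdTomato- Treg (CD4+ tdTomato- GFP+, not divided by CD73), with 3 libraries each. They are given only beside the 6. Age, sex, the promoter that drives the tamoxifen-sensitive recombinase, and the number of animals behind a library are not given in the sources used here. Libraries are named by the letter in their titles (A, B or D), and values in threes are in that order. Where library preparation rather than animals set the spread within a group, the p-values measure that spread alone.

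Treg are CD4 T cells that restrain immune responses. They arise in the thymus from developing CD4 cells whose receptors bind self antigen strongly, and then need interleukin-2, which signals through STAT5, to switch on Foxp3, the transcription factor that holds the lineage. TNF receptor family members and the NF-kB subunit c-Rel take part in that step. Tconv that develop beside them leave the thymus as naive cells, kept alive by interleukin-7 and held in the naive state by factors such as TCF1 and LEF1. CD73, encoded by Nt5e, is an ectonucleotidase that makes adenosine and appears on older T cells of the thymus, so its absence is used to pick recently formed cells.

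The 2 groups lie in tables that the authors filtered and scaled separately. CD73- new Treg share their table with CD73+ new Treg, and new Tconv share theirs with tdTomato- Treg. Only genes with a value in all 12 columns were used, 12410 of 13207, and the 12 columns were quantile-normalised together. Any difference that the 2 tables' processing left between them cannot be told apart from the difference between the groups. The tdTomato- Treg, scaled in the table of the Tconv, are therefore given beside the main results. Of the genes with values in 1 table only, 250 were in the first, 1 of them with a mean log2 CPM of at least 0 there. The other 547 were in the second, 9 of them with a mean of at least 0.

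Depth, read from the value of a gene without counts, was 11000000 to 17300000 counts in CD73- new Treg and 17500000 to 21400000 in new Tconv. The Lars2 gene alone took 22.9% to 28.8% of the summed CPM in CD73- new Treg and 16.1% to 27.4% in new Tconv. Across genes, Spearman correlations were 0.992 within CD73- new Treg, 0.993 to 0.997 within new Tconv and 0.950 to 0.959 between them. Replicate B of CD73- new Treg stood apart from its group in genes of immature and dividing thymocytes. Rag1, a subunit of the recombinase that assembles receptor genes, was at 2.80, 4.78 and 2.83 log2 CPM in replicates A, B and D, against 2.78, 2.53 and 2.33 in new Tconv. Dntt, which adds bases at receptor joints, was at 2.98, 4.39 and 2.97, and Cd8a at 0.85, 2.92 and 0.92. Results that touch these genes are given with and without that library.

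The gates were visible in the RNA. Foxp3 (chromosome X, 7573644 to 7595245, mm10) stood at 9.18, 9.15 and 9.05 log2 CPM in CD73- new Treg and at 1.12, 0.69 and -0.45 in new Tconv. The difference was 8.68 ± 0.24 (log2 fold change ± SE of the fit, n = 3 libraries a group, as for all such values below). Cd4 was detected in every library, at 8.53, 8.51 and 8.5 in CD73- new Treg and at 9.24, 9.39 and 9.21 in new Tconv. It was lower in the Treg by 1.70-fold (-0.77 ± 0.05, limma adjusted p = 9.0e-10). Nt5e, the gene of CD73, was higher in the Treg although both groups were sorted as CD73-. It was at 5.54, 5.72 and 5.39 against 4.0, 3.97 and 3.70, a 3.16-fold difference (1.66 ± 0.09, adjusted p = 3.2e-10). The mean was 7.29 in CD73+ new Treg, above every library of both CD73- groups. Since the sort used these genes, their levels check the labels.

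The markers named for the contrast separated the groups without overlap. Il2ra, the alpha chain of the interleukin-2 receptor (chromosome 2, 11642807 to 11693193), was at 9.48, 9.57 and 9.35 in CD73- new Treg and at 4.35, 4.05 and 4.04 in new Tconv. Lrrc32 (chromosome 7, 98489283 to 98502181) encodes GARP, which docks latent TGF-beta on the Treg surface. It was at 7.67, 7.53 and 7.39 against 1.29, 1.40 and 1.55. Igfbp4, an insulin-like growth factor binding protein (chromosome 11, 99041244 to 99054392), went the other way, at 4.01, 4.05 and 4.05 against 8.67, 8.34 and 8.52. The differences were 5.32 ± 0.09 for Il2ra, 6.12 ± 0.10 for Lrrc32 and -4.47 ± 0.09 for Igfbp4, and the largest adjusted p of the 3 was 5.2e-16 in limma. In tdTomato- Treg, scaled with the Tconv, the means were 9.83 for Il2ra, 8.5 for Lrrc32 and 4.77 for Igfbp4, close to CD73- new Treg and far from new Tconv.

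Nearly as many genes were higher as lower after the joint quantile normalisation. That step gives every library the same set of values, so a shift of all genes together would not show. Of 10827 genes tested, 4992 (46.1%) passed an adjusted p of 0.05 in limma, 2350 of them higher in CD73- new Treg (21.7% of genes tested) and 2642 lower (24.4%). The median log2 fold change over all genes tested was -0.03. With an added limit of 2-fold, set after the data were seen, 1061 genes passed (9.80%), 541 higher (5.00%) and 520 lower (4.80%), and 141 genes (1.30%) differed by at least 8-fold. The 6 levels of a gene did not overlap between groups for 5715 genes (52.8%). Because 46.1% of genes passed, the counts of list members below are read against these shares. Of the genes tested, 168 reached the limit on low values, a log2 CPM of 0, in every library of 1 group and in none of the other, so the limit itself bears on their direction. Among the list members named below these are Socs2, Tox2, Ccr6, Cxcr5, Prkar1b, Nkg7 and Zbtb16. Their levels are given below without a fold. Dapl1, Xcl1, S100a6 and Tbx21 are also among the 168, and are named below only beside the counts that include them. The 2-fold counts separate lists more than the calls do.

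Among abundant genes the largest positive differences were Foxp3, Il2ra, Dusp4, Il2rb, Ikzf2, Ctla4, Cish and Colq. Dusp4, a phosphatase of MAP kinases, was at 7.95, 7.43 and 7.81 against 3.76, 3.21 and 4.05, 16.6-fold higher. Colq, which encodes the collagen tail of acetylcholinesterase, was at 6.32, 6.20 and 6.25 against 2.88, 3.07 and 3.27, 9.10-fold higher. On the other side stood Igfbp4, Nav2, Vipr1, Il7r, Top2a, Pde3b, Enc1 and Mki67. Nav2, of the neuron navigator family, was at 3.48, 3.10 and 3.57 in the Treg and at 6.86, 6.45 and 6.84 in the Tconv, 10.1-fold lower. Vipr1, a receptor of vasoactive intestinal peptide, was at 3.29, 3.16 and 3.63 against 6.65, 6.51 and 6.52, 9.18-fold lower. Enc1, an actin-binding protein, was at 3.63, 3.62 and 3.58 against 5.86, 6.13 and 5.97, 5.19-fold lower. None of these 16 genes overlapped between the groups, which the rule for choosing them asked. Thy1, a surface glycoprotein of T cells chosen after its values were seen, was 3.52-fold lower in the Treg, at 6.35, 6.41 and 6.26 against 8.14, 8.20 and 8.13.

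All 25 genes of the Treg lineage list were higher in CD73- new Treg, 24 of them at least 2-fold, with a median log2 fold change of 2.95. Foxp3 and Nt5e, which the sort used, are among them. So is Socs2, which reached the limit on low values in the Treg only. Of the Ikaros family transcription factors on the list, Ikzf2, which encodes Helios, was at 10.64, 10.72 and 10.72 against 7.02, 7.32 and 7.19, 11.5-fold higher. Ikzf4, which encodes Eos, a partner of Foxp3 in repression, was 5.73-fold higher (2.52 ± 0.06). Ikzf3, which encodes Aiolos, had the smallest difference of the 25, 1.88-fold (0.91 ± 0.05).

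Other members of this list, most of them surface molecules, followed the same direction. Icos and Il10ra, surface molecules on other lists, were lower and are given below. Ctla4, which takes co-stimulatory ligands from antigen-presenting cells, was at 8.31, 7.89 and 7.96 against 4.86, 4.31 and 4.64, 10.9-fold higher. Nrp1, a semaphorin co-receptor used as a mark of thymic Treg, was at 6.59, 6.59 and 6.29 against 3.48, 3.17 and 3.46, 8.68-fold higher. Gpr83, a G protein-coupled receptor, and Izumo1r, the folate receptor family member FR4, were 5.84-fold and 2.56-fold higher. Coro2a, a coronin, was at 6.15, 6.41 and 6.07 against 1.49, 1.38 and 1.44, and Cd83 at 4.56, 4.86 and 4.77 against 0.30, 0.43 and 0.22. These are differences of 27.3-fold and 21.3-fold. Itgae, the integrin chain CD103, was low in both groups, at 2.83, 2.65 and 2.68 against 1.05, 1.03 and 1.0. Its mean was 7.80 in tdTomato- Treg.

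The mean of the 25 levels was 6.89 to 6.99 in the CD73- new Treg libraries and 3.64 to 3.72 in the Tconv. It was 7.26 to 7.46 in CD73+ new Treg and 7.83 to 7.94 in tdTomato- Treg. The 3 Treg groups lay within about 1 log2 unit of each other on this list. Their distance from Tconv is no separate result. The list holds the sort genes Foxp3 and Nt5e and the markers Il2ra and Lrrc32, and was chosen with earlier results of these data known. The Treg count, 25 of 25, was the same under all 17 alternatives.

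**Figure D1:**
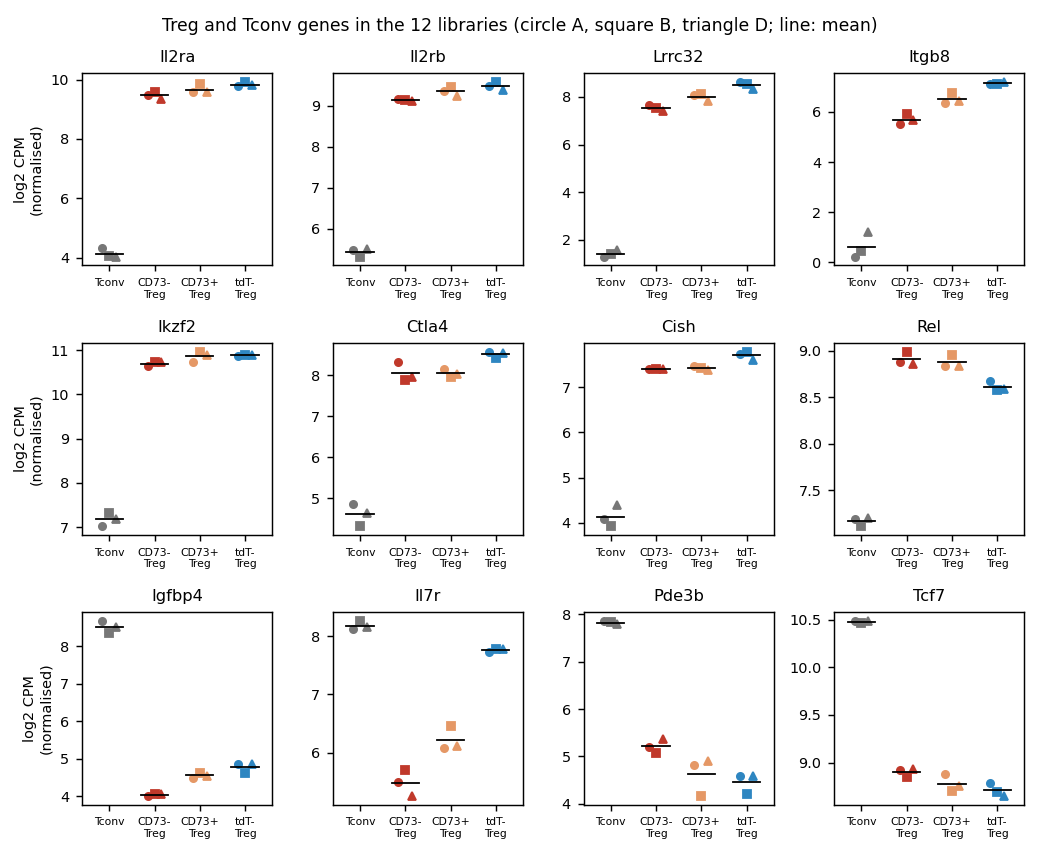
Normalised log2 CPM of 12 genes (vertical axes, each with its own range) in the 4 groups, 1 point per library with circles for replicate A, squares for B and triangles for D, and the mean as a line. The 8 genes of the upper rows are higher in the 3 Treg groups than in Tconv, the 4 of the lowest row are lower, and Il7r is the gene in which CD73- new Treg (mean 5.49) lie far from tdTomato- Treg (mean 7.76).

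Interleukin-2 signalling passes from the receptor chains to JAK1 and JAK3 and on to STAT5, which induces its own inhibitors. Of 19 genes tested on this list, 13 were higher and 2 lower, 7 higher by at least 2-fold, with a median of 0.65. Besides Il2ra, the beta chain Il2rb was at 9.16, 9.15 and 9.12 against 5.49, 5.32 and 5.51, 13.0-fold higher. The common gamma chain Il2rg was instead slightly lower, at 8.28, 8.21 and 8.19 against 8.55, 8.58 and 8.53 (-0.33 ± 0.05). Stat5a, which carries the signal, was 3.06-fold higher (1.61 ± 0.07).

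Among feedback genes and targets downstream of STAT5, Socs3 (0.19) and Osm (-0.07) did not pass, and those named next did. Cish, an inhibitor of cytokine receptors, was at 7.40, 7.39 and 7.40 against 4.09, 3.92 and 4.40, 9.58-fold higher. Socs2, of the same family, was at 2.77, 3.31 and 2.88 against -2.39, -0.18 and -1.38, where the lowest Tconv library held an estimated 2 counts. Pim1, a survival kinase, was 2.88-fold higher, at 6.96, 6.79 and 6.80 against 5.36, 5.15 and 5.48. Its relative Pim2 went the other way, at 4.10, 4.20 and 4.19 against 5.37, 5.24 and 5.23, 2.18-fold lower. Lif, a cytokine of the interleukin-6 family, was at 2.31, 2.47 and 2.29 against -1.49, -0.26 and 0.30.

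Of 24 TNF receptor family and other co-stimulatory genes tested, 14 were higher and 6 lower, 7 higher and 1 lower by at least 2-fold (median 0.50). The receptors that define thymic Treg precursors and Treg were among the higher. Tnfrsf4 (OX40) was at 6.94, 6.87 and 6.90 against 3.90, 4.03 and 3.91, 7.75-fold higher. Tnfrsf18 (GITR) was at 7.10, 6.99 and 6.92 against 4.72, 4.43 and 4.63, and Tnfrsf9 (4-1BB) at 7.20, 7.11 and 7.12 against 4.73, 4.86 and 4.80. These are differences of 5.32-fold and 5.11-fold. Tnfrsf25 was 3.82-fold higher and the adaptor Traf1 1.88-fold higher.

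Ligands did not share 1 direction. Lta, lymphotoxin alpha, was 4.41-fold higher, at 5.56, 5.36 and 5.58 against 3.38, 3.24 and 3.46. Ltb was 1.47-fold higher. Cd40lg, the helper ligand of conventional CD4 T cells, was at 2.74, 3.43 and 3.20 against 5.36, 5.74 and 5.57, 5.38-fold lower in the Treg. Tnfrsf1a, a receptor of TNF, was 1.87-fold lower (-0.90 ± 0.14). Cd28 was at 8.95, 8.89 and 8.94 against 9.03, 9.14 and 9.17 (-0.19 ± 0.06, adjusted p = 0.015). That call was not kept on the values as deposited, where the difference was -0.10 (adjusted p = 0.23), nor without new Tconv replicate D (adjusted p = 0.066).

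In the NF-kB list, 14 of 22 genes were higher and 2 lower, and 8 were higher by at least 2-fold (median 0.66). NF-kB factors are pairs of Rel-family subunits held in the cytoplasm by inhibitors, whose genes they also switch on. Rel, which encodes c-Rel (chromosome 11, 23736847 to 23770970, minus strand), was at 8.88, 8.99 and 8.86 against 7.19, 7.11 and 7.20. It was 3.35-fold higher (1.74 ± 0.05, adjusted p = 4.4e-14). Nfkb2, which encodes the p100 precursor, was 2.28-fold higher, at 6.56, 6.33 and 6.42 against 5.25, 5.18 and 5.31. Nfkb1 was 1.65-fold higher, at 8.66, 8.69 and 8.65 against 7.93, 7.96 and 7.93.

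Some genes of inhibitors and targets were also higher, while the subunit gene Rela (0.16), the inhibitor gene Nfkbib (0.20) and the target Cflar (-0.01) did not pass. Nfkbia, which encodes the inhibitor IκBα, was at 7.40, 7.15 and 7.29 against 6.20, 6.27 and 6.41, 1.98-fold higher. Birc3, an inhibitor of apoptosis, was 2.06-fold higher, and Bcl2a1b, a survival gene with near-identical copies whose counts are uncertain, 3.00-fold higher. Malt1, which carries the antigen receptor signal to NF-kB, was among the lower, at 7.12, 7.03 and 7.06 against 7.91, 7.88 and 7.89 (-0.82 ± 0.05).

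The promoters of these genes were searched for the NF-kB motif GGGANTTNCC, on both strands, in the 250 bases before each RefSeq gene start (GRCm38.p6). It was found in 4 of 16 NF-kB list members with a promoter in the table (25%). On the TNF receptor list 2 of 22 members held it (9.09%). Over all gene symbols the number was 306 of 27025 (1.13%), or 322 of 32851 promoter windows (0.98%). The NF-kB list takes in targets of these factors by choice, so these shares are no test of enrichment. Matches are shown for the members that hold them, with 10 bases on each side, 5′ to 3′ on the strand of the gene, and capitals mark the match, which may lie on either strand. In order they lie at chr11:23771042-23771071 (minus strand), chr12:55492657-55492686 (minus), chr19:46304688-46304717 (plus), chr19:46305695-46305724 (plus), chr7:30422170-30422199 (plus), chr4:150927947-150927976 (plus) and chr17:35194410-35194439 (plus).
Rel: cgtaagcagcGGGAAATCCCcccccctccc
Nfkbia: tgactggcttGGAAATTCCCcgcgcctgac
Nfkb2, first start: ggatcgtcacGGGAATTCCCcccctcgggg
Nfkb2, second start: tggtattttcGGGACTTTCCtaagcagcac
Nfkbid: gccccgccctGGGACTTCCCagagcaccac
Tnfrsf9: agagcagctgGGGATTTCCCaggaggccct
Ltb: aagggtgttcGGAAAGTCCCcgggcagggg
The matches begin 92 bases before the start of Rel, 29 before Nfkbia, 39 and 225 before the starts of Nfkb2, 226 before Nfkbid, 42 before Tnfrsf9 and 87 before Ltb. The stretches shown for Nfkb2, Tnfrsf9 and Ltb, with the bases on each side, overlap an annotated exon. Of the 6 genes, 5 were higher in CD73- new Treg, against 14 of 22 and 14 of 24 on the lists they come from. Over all genes tested the share was 21.7%. The search covered only these lists, so the 5 do not show that genes with the motif are higher. Nfkbid did not pass, at 5.46, 5.22 and 5.37 against 5.15, 5.0 and 5.27 (adjusted p = 0.13). A match describes letters only, since binding was not measured.

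Genes that antigen receptor signals induce were mostly higher, while the receptor's own components were mostly lower. Of 24 induced genes tested, 17 were higher and 4 lower, 9 higher by at least 2-fold (median 0.64). Both counts of higher members include Xcl1, which reached the limit on low values in the Treg only. Bhlhe40, a transcriptional repressor, was at 6.04, 5.41 and 5.97 against 2.81, 2.59 and 2.96, 8.10-fold higher. Spry1, an inhibitor of RAS signalling, was 5.16-fold higher, at 4.20, 3.96 and 4.06 against 1.97, 1.52 and 1.64. Nr4a3, an orphan nuclear receptor, was at 7.84, 7.92 and 7.80 against 6.27, 6.51 and 6.42, 2.74-fold higher. Nr4a1, which encodes Nur77, was 1.66-fold higher.

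Early growth response genes did not follow them. Egr1 was slightly lower, at 6.76, 6.88 and 6.92 against 7.15, 7.28 and 7.25 (-0.38 ± 0.07, adjusted p = 0.00056). Irf4 did not pass, at 5.88, 5.95 and 5.66 against 6.04, 5.94 and 6.00. Tox2, a factor of the high-mobility group, was at -2.94, -0.67 and -2.42 against 1.42, 1.03 and 1.22, with an estimated 1 count in the lowest Treg library. It is among the lower members but reached the limit on low values in the Tconv only, so no fold is given.

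Among 30 genes of proximal receptor signalling, 5 were higher and 19 lower, with a median of -0.30, and 1 differed by 2-fold. The higher count was 3 without CD73- new Treg replicate D or without new Tconv replicate B. Cd3g and Cd3e, chains of the receptor complex, were 1.78-fold and 1.40-fold lower. Pag1, an adaptor that holds the inhibitory kinase CSK, was at 7.69, 7.62 and 7.75 against 8.47, 8.37 and 8.35, 1.63-fold lower. Cblb, a ubiquitin ligase that dampens receptor signals, was the member higher by 2-fold, at 9.03, 8.80 and 8.91 against 8.02, 7.66 and 7.95. Ubash3a, a phosphatase of the same pathway, was 1.18-fold higher. Ptprc, the phosphatase CD45, was 0.22 higher on the normalised scale, where it took 1 rank in each group and so 1 value, 11.45 against 11.24. On the values as deposited the difference was 0.10 and the adjusted p was 0.20.

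The list of inhibitory and co-stimulatory receptors and ligands is mostly of the immunoglobulin family, with Cd5 and Cd6 outside it. Of 20 tested, 15 were higher, Cd5 and Cd6 among them, and 4 lower. By at least 2-fold, 9 were higher (median 0.62). Without new Tconv replicate D, 2 were lower. Cd200, which signals to an inhibitory receptor on myeloid cells, was 3.87-fold higher, at 6.32, 6.42 and 6.28 against 4.43, 4.31 and 4.41. Slamf1 was 2.37-fold higher. Vsir, which encodes VISTA, was 1.24-fold lower, and Icos 1.34-fold lower, at 6.21, 6.20 and 6.13 against 6.62, 6.64 and 6.56. Icos had a mean of 8.02 in tdTomato- Treg.

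TGF-beta supports Treg formation and is released from its latent form at the Treg surface. Of 18 genes tested, 10 were higher and 4 lower, 4 higher and 1 lower by at least 2-fold (median 0.23). Beside Lrrc32, the integrin chain Itgb8, which frees TGF-beta from GARP, was at 5.50, 5.91 and 5.67 against 0.22, 0.43 and 1.22, 33.6-fold higher. The receptor genes differed in direction. Tgfbr1 was at 8.39, 8.37 and 8.42 against 6.28, 6.24 and 6.20, 4.45-fold higher. Tgfbr2 was at 8.05, 7.94 and 8.09 against 8.97, 8.74 and 8.86, 1.78-fold lower, and the co-receptor Tgfbr3 at 5.90, 5.72 and 5.93 against 7.67, 7.54 and 7.59, 3.35-fold lower. Tgif1, a repressor that acts with SMAD proteins, was 4.99-fold higher, and Smurf2, a ubiquitin ligase of the pathway, 1.73-fold lower.

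Other cytokine receptors were split, with 9 of 21 higher and 6 lower and a median of -0.01. Ifngr1, a chain of the interferon gamma receptor, was at 7.16, 7.14 and 6.93 against 5.91, 5.70 and 5.71, 2.47-fold higher. The 2 chains of the interleukin-10 receptor went opposite ways. Il10rb was 2.29-fold higher (1.19 ± 0.09) and Il10ra 2.67-fold lower (-1.42 ± 0.12). Il7r, the receptor of the survival cytokine interleukin-7, was at 5.50, 5.71 and 5.27 against 8.12, 8.26 and 8.15, 6.42-fold lower. Its mean was 6.22 in CD73+ new Treg and 7.76 in tdTomato- Treg, so the level differed among Treg groups by more than the spread of the 3 CD73- new Treg libraries.

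Genes of naive and conventional T cells were mostly lower in CD73- new Treg. Of 20 tested, 15 were lower and 1 higher, 7 lower by at least 2-fold (median -0.60). Both counts of lower members include Dapl1, which reached the limit on low values in the Tconv only. Tcf7, which encodes TCF1, was at 8.92, 8.85 and 8.93 against 10.49, 10.46 and 10.49, 2.98-fold lower. Lef1, its relative, was 1.94-fold lower, at 9.01, 9.0 and 9.12 against 10.04, 9.92 and 10.04. Satb1, a chromatin organiser of thymocytes, was 1.46-fold lower, at 10.89, 10.85 and 10.97 against 11.45 in all 3 Tconv libraries, where it took the same rank. Without CD73- new Treg replicate B, which was lowest for Ccr7 in its group, 2 members were higher, Ccr7 among them (adjusted p = 0.022).

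The list of Ikaros family and T cell lineage transcription factors, 33 genes, was divided, with 12 higher and 13 lower and a median of -0.03. The 12 include Tbx21, which reached the limit on low values in the Treg only. Ikzf1, which encodes Ikaros itself, was 1.80-fold lower, at 9.24, 9.22 and 9.22 against 10.13, 10.03 and 10.06, while its relatives Ikzf2, Ikzf3 and Ikzf4 were higher. The RUNX factors also differed. Runx3, a factor of CD8 and innate-like lineages, was at 2.87, 3.18 and 2.92 against 5.59, 5.52 and 5.46, 5.81-fold lower, and Runx2 was 3.47-fold higher, at 3.66, 3.74 and 3.65 against 1.68, 1.85 and 2.14. Id2, an inhibitor of E proteins, was at 3.84, 3.87 and 3.63 against 5.72, 6.02 and 5.67, 4.05-fold lower. Gata3 was 1.77-fold higher and Rora 2.03-fold higher.

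Cell cycle genes were lower in CD73- new Treg. Of 29 tested, 26 were lower and 2 higher, and 16 were lower by at least 2-fold, with a median of -1.23. Top2a, the topoisomerase of dividing cells, was at 4.54, 5.41 and 4.35 against 7.28, 7.61 and 7.38, 6.30-fold lower (-2.66 ± 0.21, adjusted p = 2.6e-08). Mki67, which encodes the proliferation antigen Ki-67, was at 5.45, 6.32 and 5.13 against 7.66, 8.03 and 7.94, 4.72-fold lower. Rrm2 makes deoxynucleotides, and was at 2.48, 2.80 and 1.88 against 4.47, 4.87 and 4.35, 4.53-fold lower. In bulk libraries, fewer cells in cycle and less RNA per cell cannot be told apart.

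The difference was smaller for the replicative helicase. All 6 genes from Mcm2 to Mcm7 were lower, with a median of -0.73. Mcm2 was at 4.96, 5.21 and 4.75 against 6.08, 6.12 and 5.99, and Pcna, the polymerase clamp, at 6.30, 6.38 and 6.18 against 6.84, 6.88 and 6.93. The 2 higher members were Cdkn1b, which encodes the cell cycle inhibitor p27 (1.20-fold), and Ccnd3, which encodes cyclin D3 (1.16-fold, adjusted p = 0.030). Ccnd3 overlapped between the groups and was not called without CD73- new Treg replicate A (adjusted p = 0.12), CD73- new Treg replicate D (0.10) or new Tconv replicate B (0.16). Ccnd2 did not pass, at 9.93, 10.02 and 9.95 against 9.85, 9.97 and 9.77.

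Replicate B was the highest CD73- new Treg library for Top2a, Mki67 and Rrm2, and its mean over the 29 genes was 4.01, against 3.52 and 3.51 in A and D. The Tconv means were 4.85 to 5.00. Without that library 26 genes were again lower, and the difference was -2.98 for Top2a and -2.58 for Mki67. CD73+ new Treg had list means of 3.78 to 4.06 and tdTomato- Treg of 3.89 to 3.92, so each of the 3 Treg groups was below the Tconv range.

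Histone cluster genes, a family taken up after the data were seen, had the same direction. Of 62 tested, 53 were lower and none higher, 37 of the lower by at least 2-fold, with a median of -1.29. Without CD73- new Treg replicate B, 53 were again lower. Hist1h1b, a linker histone gene, was at 3.51, 4.01 and 3.29 against 5.52, 5.64 and 5.57. Hist1h2ab was at 2.38, 3.13 and 2.57 against 5.01, 4.74 and 5.06. Near-identical histone copies share reads, so single members are uncertain. Replication-dependent histone messages lack a poly(A) tail, and how RNA was selected is not given in the sources used here. Cytosolic ribosomal protein genes, also taken up after the data were seen, differed little, with 35 of 77 lower, 4 higher and a median of -0.14. With rebuilt counts scaled by the median of ratios, 22 were lower and 9 higher.

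**Figure D2:**
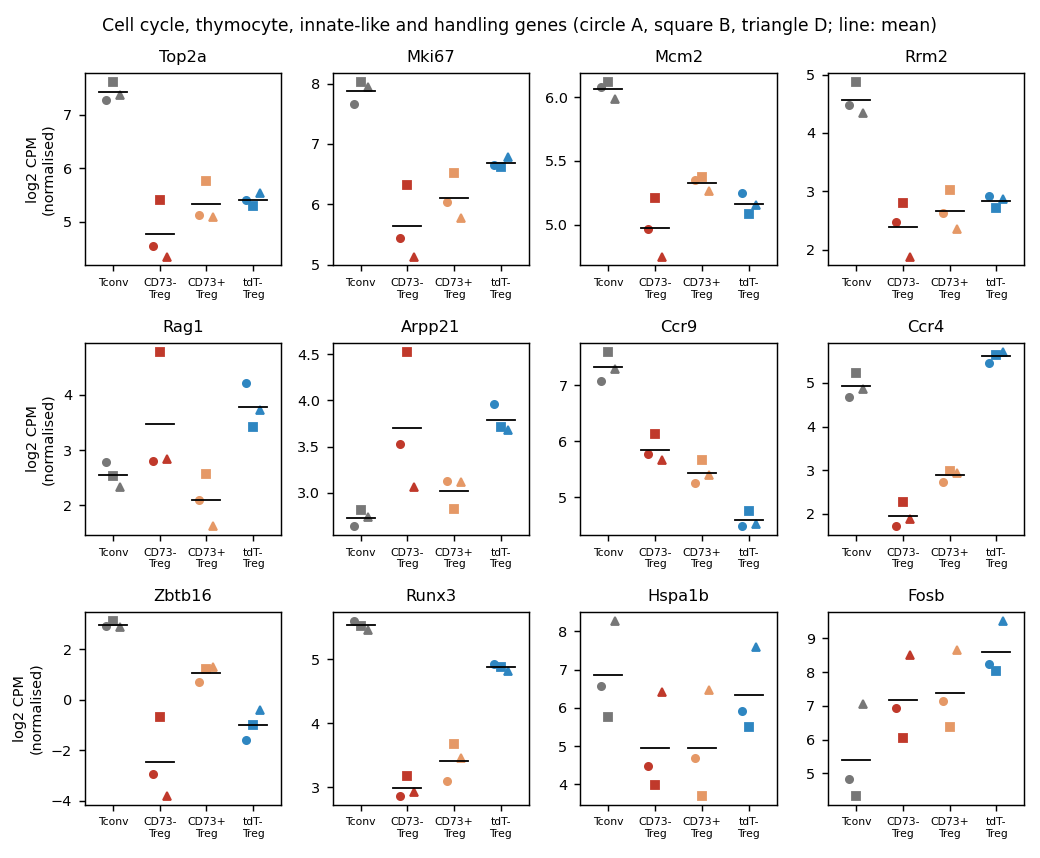
Normalised log2 CPM of 12 genes (vertical axes, each with its own range) in the 4 groups, 1 point per library with circles for replicate A, squares for B and triangles for D, and the mean as a line. In the CD73- new Treg, replicate B is the highest for Top2a, Rag1 and Arpp21, Zbtb16 is lowest in that group, and Hspa1b and Fosb are highest in the D libraries of CD73- new Treg and of new Tconv.

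Immature thymocyte genes were lower more often than higher, with 12 of 24 lower, 4 higher and a median of -0.37. Ccr4, a chemokine receptor of cells that enter the medulla, was at 1.72, 2.27 and 1.88 against 4.69, 5.24 and 4.87, 7.86-fold lower. Ccr9, which guides cells within the thymus, was at 5.77, 6.13 and 5.67 against 7.07, 7.60 and 7.29, 2.76-fold lower. Itm2a, a membrane protein of recently selected cells, was 2.58-fold lower. Cd69, an early mark of receptor signals, was 1.79-fold higher, at 8.13, 8.13 and 8.23 against 7.13, 7.35 and 7.49, and Tox, a factor of CD4 development, 1.31-fold higher.

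Genes of double-positive thymocytes varied with replicate B. Arpp21 was at 3.53, 4.53 and 3.06 against 2.64, 2.81 and 2.74, a difference of 0.98 ± 0.25 (adjusted p = 0.0043) that became 0.56 without replicate B (adjusted p = 0.012). Rag1 did not pass (0.92 ± 0.39, adjusted p = 0.066), and without replicate B its difference was 0.27 (adjusted p = 0.42). Dntt did not pass with all libraries (-0.34 ± 0.30) and was lower without replicate B (-0.81, adjusted p = 0.0053). The count of called immature thymocyte genes without that library was 4 higher and 13 lower.

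Genes that mark maturation and exit from the thymus were more often higher, with 16 of 31 higher, 6 lower and a median of 0.28. By at least 2-fold, 3 were higher and 3 lower, so the larger differences did not share 1 direction. Il7r, given above, was the lowest member (-2.68). Ms4a4c, a membrane protein of the MS4A family, was at 5.20, 5.30 and 5.28 against 2.79, 3.21 and 2.95, 4.84-fold higher. H2-Q7, a class Ib histocompatibility gene with near-identical relatives whose counts are uncertain, was 2.39-fold higher. S1pr1, the receptor that leads mature cells out of the thymus, was 1.37-fold higher, at 8.80, 8.79 and 8.64 against 8.36, 8.26 and 8.23. Gimap3, a GTPase of lymphocyte survival, was 1.84-fold higher. Klf2, the factor that drives S1pr1, did not pass (0.38 ± 0.16, adjusted p = 0.058), and neither did Ccr7 (0.26 ± 0.14, adjusted p = 0.13). Ass1, an arginine synthesis enzyme, was 3.23-fold lower and Cd52 1.61-fold lower.

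Chemokine receptors and integrins held some of the widest differences in both directions, with 12 of 25 higher and 10 lower, 6 each way by at least 2-fold (median 0.19). Ccr6 was at 3.99, 3.98 and 3.99 against -0.47, -1.47 and -1.64, with an estimated 4 counts in the lowest Tconv library. Cxcr5, the receptor of follicular cells, was at 2.15, 1.66 and 1.69 against -0.17, -0.26 and -0.08. Ccr6 and Cxcr5 are among the 12 higher but reached the limit on low values in the Treg only, so no fold is given. Itgb3, an integrin beta chain, was 3.49-fold lower, at 6.64, 6.63 and 6.67 against 8.48, 8.40 and 8.46. Cxcr6, at -1.48, 0.39 and -0.23 against 1.82, 1.94 and 1.71, and Ccr2, at -1.87, 1.28 and 0.53 against 2.12, 2.22 and 1.62, were low in both groups and lower in the Treg. The difference for Ccr2 was -2.01 ± 0.53, with -1.08 without CD73- new Treg replicate A and -2.66 without replicate B.

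Effector and tissue Treg genes did not share 1 direction. Of 30 listed, 20 were tested, 8 lay below the limit on low values and 2 were in 1 table only. Among those tested, 8 were higher and 10 lower, with a median of -0.24. The 10 include S100a6, which reached the limit on low values in the Tconv only. Entpd1, the ectonucleotidase CD39 that acts before CD73, was at 1.93, 2.25 and 2.31 against -0.85, -0.74 and 0.30, 6.04-fold higher. Ahnak, a large scaffold protein, was 2.22-fold higher. The mean level over the 20 genes was 3.32 to 3.46 in CD73- new Treg and 3.34 to 3.58 in Tconv, ranges that overlapped, and 5.53 to 5.76 in tdTomato- Treg. The count of lower members was 6 when genes had to reach a log2 CPM of 2 in 3 libraries.

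BCL2 family genes of both kinds were higher, 15 of 21 with 2 lower and a median of 0.38. Among genes that promote death, Bbc3, which encodes PUMA, was at 3.59, 2.98 and 3.74 against 2.29, 1.62 and 2.49, 2.47-fold higher. Pmaip1, which encodes NOXA, was at 2.80, 2.87 and 2.62 against 1.59, 0.53 and 1.29, 3.08-fold higher, and Bcl2l11, which encodes BIM, 1.24-fold higher. Among survival genes, Bcl2l1 was 1.76-fold higher, at 6.02, 6.26 and 5.93 against 5.23, 5.28 and 5.25, and Bcl2 1.28-fold higher. The lower members were Bmf (1.83-fold) and Birc5, a gene of mitosis also on the cell cycle list (5.23-fold).

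Interferon response genes showed small differences, 13 of 29 higher and 8 lower, none higher by 2-fold and 2 lower (median 0.18). Ifi27l2a was 1.60-fold higher, Usp18, which removes the ubiquitin-like protein ISG15, 1.47-fold, and Stat2 1.46-fold. Oas2, an antiviral synthetase, was instead at 3.76, 4.02 and 4.03 against 5.75, 5.70 and 5.77, 3.49-fold lower. Ly6a, which encodes Sca-1, was at 2.02, 2.20 and 1.79 against 4.19, 4.17 and 4.26, 4.60-fold lower. Oas3 was 1.47-fold lower. Without the libraries of letter D the counts were 8 higher and 5 lower.

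Glycolytic enzymes and transporters were lower in 10 of 19 cases and higher in 3, with a median of -0.26. Pkm, Eno1 and Pgk1, enzymes of the lower part of the pathway, were 1.75-fold, 1.87-fold and 1.59-fold lower. The 3 higher members were 2 transporters and a hexokinase. Other genes of these kinds did not follow. The more abundant hexokinase gene Hk1 (-0.08) and the transporter Slc2a1 (0.13) did not pass, and the transporter Slc16a1 was lower (-0.64). Slc16a3, a lactate exporter, was at 3.95, 3.58 and 3.65 against 0.91, 0.78 and 1.03, 7.07-fold higher. Hk2, a hexokinase, was 2.99-fold higher, at 2.78, 2.87 and 2.74 against 1.17, 1.62 and 0.87. Slc2a3, a glucose transporter, was 1.66-fold higher.

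Sterol genes differed little, with 17 of 23 not past the threshold. Of the others, 4 were higher, among them Insig1 (1.61-fold), which holds back sterol synthesis, Srebf2 (1.30-fold), which drives it, and the exporter Abca1 (1.51-fold). The 2 lower were the synthesis enzymes Lss (1.42-fold) and Dhcr7 (1.16-fold), and neither was called in every alternative. Leaving out CD73- new Treg replicate A or D or new Tconv replicate A left 1 of them, and leaving out new Tconv replicate D left none. Cyclic AMP genes were divided, 9 of 25 higher and 10 lower (median -0.01). The phosphodiesterases moved apart. Pde3b was at 5.21, 5.06 and 5.37 against 7.86, 7.84 and 7.79, 6.14-fold lower, while Pde4a was 4.19-fold higher, at 3.78, 3.78 and 3.70 against 1.71, 1.59 and 1.77. Prkar1b, a regulatory subunit of protein kinase A, was at 2.35, 1.94 and 2.85 against -0.28, -0.98 and -1.96. Its lowest Tconv library held an estimated 3 counts. It is among the higher members but reached the limit on low values in the Treg only, so no fold is given. Prkacb, a catalytic subunit, was 1.62-fold lower and the cyclase Adcy7 1.96-fold lower. The prostaglandin receptor Ptger4 was 2.24-fold higher.

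**Figure D3:**
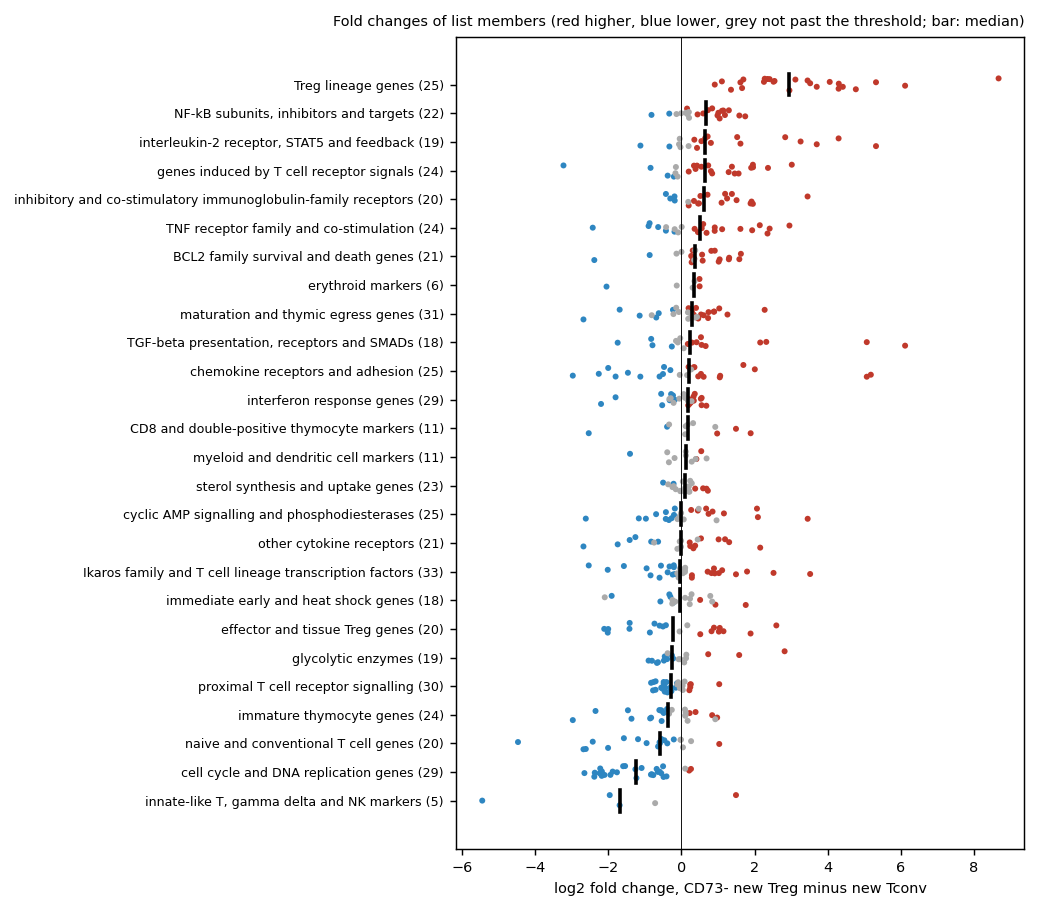
Log2 fold change, CD73- new Treg minus new Tconv (horizontal), of each tested member of the lists with at least 5 tested members (rows, with the number tested), in red where higher, blue where lower and grey where not past the threshold, with a bar at the median. Treg lineage genes lie to the right (median 2.95), cell cycle genes to the left (median -1.23), and lists such as cyclic AMP signalling spread to both sides of 0.

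Markers of other cells ranged from near 0 to abundant, and their part in the results was not tested. The innate-like list had 5 tested members of 12, 3 of which reached the limit on low values in the Tconv group only, so its count of lower members is not given. It had a summed level of 8.34 to 12.5 CPM in CD73- new Treg and 15.1 to 19.0 in new Tconv. Zbtb16, which encodes PLZF, the defining factor of natural killer T cells, was at 2.92, 3.12 and 2.90 in new Tconv (estimated 128, 181 and 130 counts). In CD73- new Treg it was at -2.94, -0.67 and -3.81 (1, 10 and 0 counts). The groups did not overlap, and since Zbtb16 was tested only through its level in Tconv, no fold is given. Sox13, a factor of gamma delta T cells, was lower (-1.69 ± 0.54, adjusted p = 0.017), and Eomes was higher, at 2.64, 3.07 and 2.53 against 0.85, 1.42 and 1.50. The call of Sox13 was lost without CD73- new Treg replicate A, new Tconv replicate B or new Tconv replicate D, and without the libraries of letter B or D. The part that innate-like cells in the Tconv gate have in the lower Runx3, Cxcr6 and Ccr2 was not tested.

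The CD8 and double-positive list summed to 87.9 to 157 CPM in CD73- new Treg, highest in replicate B, and to 131.5 to 132.2 CPM in new Tconv. Of its 11 tested members, 3 were higher and 2 lower. Without replicate B the counts were the same, but Cd8b1 was no longer called and Dntt was called lower. Nkg7, a gene of cytotoxic granules, was at 1.29, 1.97 and 1.07 against -0.65, -0.09 and -0.60. It is among the higher members but reached the limit on low values in the Treg only, so no fold is given. Without replicate B the difference was 1.33 for Eomes, against 1.49. Cd8b1 was at 3.74, 3.44 and 3.29 against 3.86, 3.92 and 3.87, and Cd1d1, the most abundant member, at 5.14, 5.11 and 4.95 against 5.00, 4.84 and 5.05. Myeloid markers summed to 151 to 198 CPM against 122 to 138, with 2 of 11 tested higher and 1 lower. Ctss, a cathepsin, was 1.45-fold higher and Cd74 1.33-fold, and Itgam was 2.66-fold lower. The call of Cd8b1 was lost without any 1 library other than CD73- new Treg replicate A, and that of Cd74 without CD73- new Treg replicate B or D or new Tconv replicate A or B. Without CD73- new Treg replicate A, 5 myeloid markers were higher.

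B cell markers summed to 5.73 to 8.46 CPM against 5.20 to 7.58, and neither of the 2 tested members passed. Cd79a was at -1.87, 0.64 and 0.76 against 0.46, 0.47 and 0.01. Thymic epithelial markers summed to 79.5 to 98.6 CPM against 92.6 to 94.7, where Ly75, also made by dendritic cells, was 1.19-fold lower. Erythroid markers summed to 102 to 122 CPM against 73.9 to 114, and the globin genes Hba-a2 and Hbb-bs, each with a near-identical copy, were 1.41-fold higher. No erythroid marker was called higher without CD73- new Treg replicate B, new Tconv replicate B or new Tconv replicate D. Car2 was 4.15-fold lower, and Ly75 was not called without CD73- new Treg replicate A or B or new Tconv replicate A or D. The stromal list summed to 467 to 551 CPM against 557 to 588. Of it 2 members were tested, Pecam1 (1.34-fold higher) and Vim (1.50-fold lower), both also expressed by T cells.

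Immediate early and heat shock genes, which respond to tissue handling, varied by letter. Their mean over the 18 genes was highest in D and lowest in B in each of the 4 groups. Fosb was at 6.93, 6.04 and 8.52 in CD73- new Treg and at 4.83, 4.33 and 7.04 in new Tconv, highest in D each time (1.76 ± 0.68, adjusted p = 0.046). Fos and Jun did not pass, at 7.52, 6.69 and 8.30 against 6.50, 5.92 and 7.73 for Fos and at 7.60, 6.84 and 8.21 against 6.59, 5.85 and 7.70 for Jun. Both were nevertheless higher in the Treg library of every letter, and Fos passed in 4 and Jun in 5 of the 17 alternatives. Both passed with the letter as a replicate block, where 8 genes of the list were higher and 8 lower. Hspa1b, a heat shock gene, was at 4.48, 4.0 and 6.42 against 6.58, 5.77 and 8.27 (-1.91 ± 0.73, adjusted p = 0.043). Its near-identical copy Hspa1a had a difference of -2.10 ± 0.86 that did not pass. Within every letter, Fosb was higher and Hspa1b lower in the Treg library. The call of Fosb was lost in 7 alternatives and that of Hspa1b in 6, without new Tconv replicate D among them for Hspa1b (-1.21). Hspa1a passed in 7 of the 17 alternatives. Over the alternatives the limma adjusted p ranged from 9.0e-09 to 0.23 for Fosb, from 3.7e-12 to 0.21 for Hspa1b and from 1.9e-12 to 0.25 for Hspa1a. Of 18 genes tested on this list, 3 were higher and 5 lower, and over the 17 alternatives the counts ranged from 0 to 8 higher and from 1 to 8 lower. Dusp1 (1.90-fold) and Fosl2 (1.42-fold) were the other higher members, and Hspa8 (1.23-fold) and Hsp90aa1 (1.26-fold) were among the lower. Their part in the differences of Nr4a1, Egr1 and other induced genes was not tested.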

How the data were processed

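RNA sequencing libraries of 4 sorted thymic CD4 populations, 3 libraries each, were used. Per the labels' protocols, TRIzol was used for extraction and KAPA RNA HyperPrep for the libraries. STAR, RSEM, limma and mm10 appear in the submitters' processing notes, without versions. Expression was deposited as log2 values in 2 tables of 6 libraries, which the authors filtered and scaled apart. From the values they are log2 CPM with an offset of 0.5 counts, so depth and estimated counts were rebuilt from the lowest value of each library. Intervals from counts cover counting error only. The authors also deposited p-values, adjusted p-values and log2 fold changes of their own within-table comparisons, with t and B columns treated as a score in the deposited table. None of these was used.

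Genes with values in all 12 columns were quantile-normalised together. Limma 3.58.1 in R 4.3.3 was fitted with 4 group means, an intensity trend and no block. Genes needed a normalised log2 CPM of at least 0 in 3 of the 6 libraries compared. Tests were two-sided with Benjamini-Hochberg adjustment over all genes tested and a threshold of 0.05. Errors are SE of the fit. The code was tested on simulated data.

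The members and the 29 gene lists were chosen with earlier results of these data known, so lists are described by counts with no set test. Named by rule were the genes of the gates, the markers Il2ra, Lrrc32 and Igfbp4, and the 8 highest and 8 lowest fold changes among called genes that do not overlap between groups and lie above the median level, without predicted genes, pseudogenes and receptor segments. The rule also took up to 3 called members of each process list per direction by p-value, and for lists of other cells and of handling up to 2 per direction and the most abundant. Other genes were named after their values were seen, among them Nrp1, Socs2, Cd83, Rag1, Thy1, Fos and Nfkbia. The 2-fold limit and the families were chosen after the data were seen. Some list members are not reported here. Gene positions are from GENCODE (mm10), to which 13088 of 13207 IDs matched, and promoters from RefSeq. Libraries of a group differed by more than sampling noise. The alternatives are other scalings, other limits on low values, only the 6 libraries, no intensity trend, a replicate block, and leaving out each library or letter.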

Additional observations from a re-analysis of the deposited data

How the results depend on the processing

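Over 17 alternatives the number of genes past the threshold stayed within 1.5 times of 4992, from 3585 without the libraries of letter A to 5421 with the letter as a replicate block. Leaving out 1 of the 6 libraries gave 4453 to 4959 genes, values as deposited 5104 and rebuilt counts 5054. With rebuilt counts 50.3% of called genes were higher, against 47.1%. The letters were not treated as pairing the libraries, since no label says what they mark. Deviations of same-letter libraries correlated at 0.03 (A), 0.17 (B) and 0.04 (D). Treg A correlated best with Tconv D (0.12), and Treg B and Treg D with the Tconv of their own letter. Immediate early and heat shock genes varied by letter in every group, so these correlations over all genes do not settle whether the letters pair the libraries. The block gave 2543 higher and 2878 lower genes, 4979 of them shared with the fit without it. With it 8 immediate early and heat shock genes were higher and 8 lower, against 3 and 5, Fos (adjusted p = 1.7e-06) and Jun (3.1e-05) among the called. Of 179 single genes followed, 150 kept direction and call in every alternative, 17 lost the call in some, 10 gained it and 2 changed direction, neither of which passed. The difference of Cd79a ranged from -0.93 to 0.38 with 1 library left out and was 0.46 without letter A. That of Cd8a ranged from -0.56 to 0.47 with 1 library left out, with -0.0008 without new Tconv replicate A, and was -0.46 without letter B. The cause was not tested. Depth limits genes near 3 counts, a log2 CPM of -2.61 to -1.65 across these libraries.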
